A study of Drosophila melanogaster with 6 samples.

Results

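The mitochondrial ribosome is the ribosome inside mitochondria that translates the messenger RNAs of the mitochondrial genome, which encode core subunits of the respiratory chain and the ATP synthase. Its ribosomal RNAs come from the mitochondrial genome, while all of its proteins are encoded in the nucleus, translated in the cytoplasm and imported. Early fly embryos live on transcripts and mitochondria loaded into the egg by the mother, so these messenger RNAs are largely a maternal supply at the onset of zygotic transcription.

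The genes described here are those whose symbol begins with mRpL (large subunit) or mRpS (small subunit) followed by a digit. They were taken from Affymetrix probe sets that the platform annotation assigns to exactly 1 gene, and each gene is represented by the probe set with the highest mean signal over all arrays. The rule used names and mean signal only and gave 69 of the 11982 genes measured, 44 of the large and 25 of the small subunit. The 69 genes had 71 such probe sets, and 2 further probe sets that list an mRp symbol among several were left out. Of the 73 mRp symbols in the RefSeq annotation, 4 were not analysed here.

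Total RNA was hybridized to 6 arrays from pools of dechorionated Drosophila melanogaster embryos aged 2 to 4 h. In the brakeless group the mothers were FRT2R G13 bks278 over FRT2R G13 ovoD1 and the fathers FRT2R G13 bks278 over the balancer CyO. In the control group the mothers were FRT2R G13 over FRT2R G13 ovoD1, without the bks278 allele, and the fathers carried FRT2R G13. The dominant female-sterile ovoD1 chromosome blocks egg laying from germ cells that keep it, so the eggs of both groups came from recombined germline clones on arm 2R. Maternal product of brakeless (sbb), a nuclear corepressor gene, was thus altered in the first group, while its embryos received either bks278 or CyO from the father and were mixed in zygotic genotype. Each group has 3 arrays, which the labels call biological replicates. Nothing says which came from separate crosses, so p-values measure the spread between these arrays. Each value is a property of a whole embryo pool, in which fewer cells of a type and less RNA per cell cannot be told apart.

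The values are log2 signals normalized by the authors across arrays. Between arrays the mean correlation of each with the others lay between 0.964, on control replicate 3, and 0.986, on brakeless replicate 2. The brightest sbb probe set read 5.33, 4.45 and 4.61 on the brakeless arrays, against 6.01, 6.71 and 6.06 on the control arrays, so the groups did not overlap for the altered gene. Of 14 genes transcribed in embryos of this age, 9 were measured, at mean signals of 5.57 to 10.1. Follicle cell and eggshell genes (9 of 11 measured) stayed at or below 4.67, yolk protein genes (3 of 3) at or below 4.2 and hemocyte genes (3 of 3) at or below 4.12, against a median of 3.67 over all probe sets. Muscle genes of older embryos (8 of 11 measured) had mean signals of 3.32 to 7.81, and neuron genes (5 of 6) of 3.70 to 5.87. Whether the pools held older embryos was not tested.

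All 69 mitochondrial ribosomal protein genes gave high signals. Their mean signals ran from 8.57 (mRpS2) to 11.4 (mRpS21) with a median of 10.04, and the dimmest lay at percentile 81.9 of all probe sets. Brightness depends on the probes as well as on the transcript, so the order of these signals is not an order of transcript amount.

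None of the 69 genes passed the test between brakeless and control embryos, which was limma with Benjamini-Hochberg adjustment over 18769 probe sets and a threshold of 0.05. Over all 11982 genes 22 passed, or 0.184%, so an absence of calls among 69 genes is near that background. The adjusted p was 0.998 for 68 genes and 0.983 for the other one, mRpS29. At an unadjusted p under 0.05 the count was 1 of 69, against 6.16% of all genes. The signals of the 3 brakeless arrays did not overlap those of the 3 control arrays in 3 of 69 genes (4.35%), against 11.2% of all genes. Both shares were below the background in this fit of all 6 arrays.

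The differences between the groups were small in most of the genes. The log2 difference, brakeless minus control, was under 0.25 in size in 47 genes and under 0.5 in 67, and it reached 1, a fold of 2, in 1 gene (mRpS5). The median difference was -0.07, against -0.01 over all genes, and 46 differences were negative and 23 positive. That is 66.7% negative, against 51.4% of all genes. The sign of this median rests on single arrays: leaving out brakeless replicate 1 gave 0.05, leaving out control replicate 1 gave 0.005, and leaving out control replicate 2 gave -0.24. The 95% interval of the difference stayed within 1 log2 unit of 0 in 57 genes and reached beyond it in 12, with a median half-width of 0.497. In 67 of the 69 genes the wider of the ranges within the groups exceeded the difference between the group means. Small differences meet this easily, and the share over all genes was not computed.

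**Figure D1:**
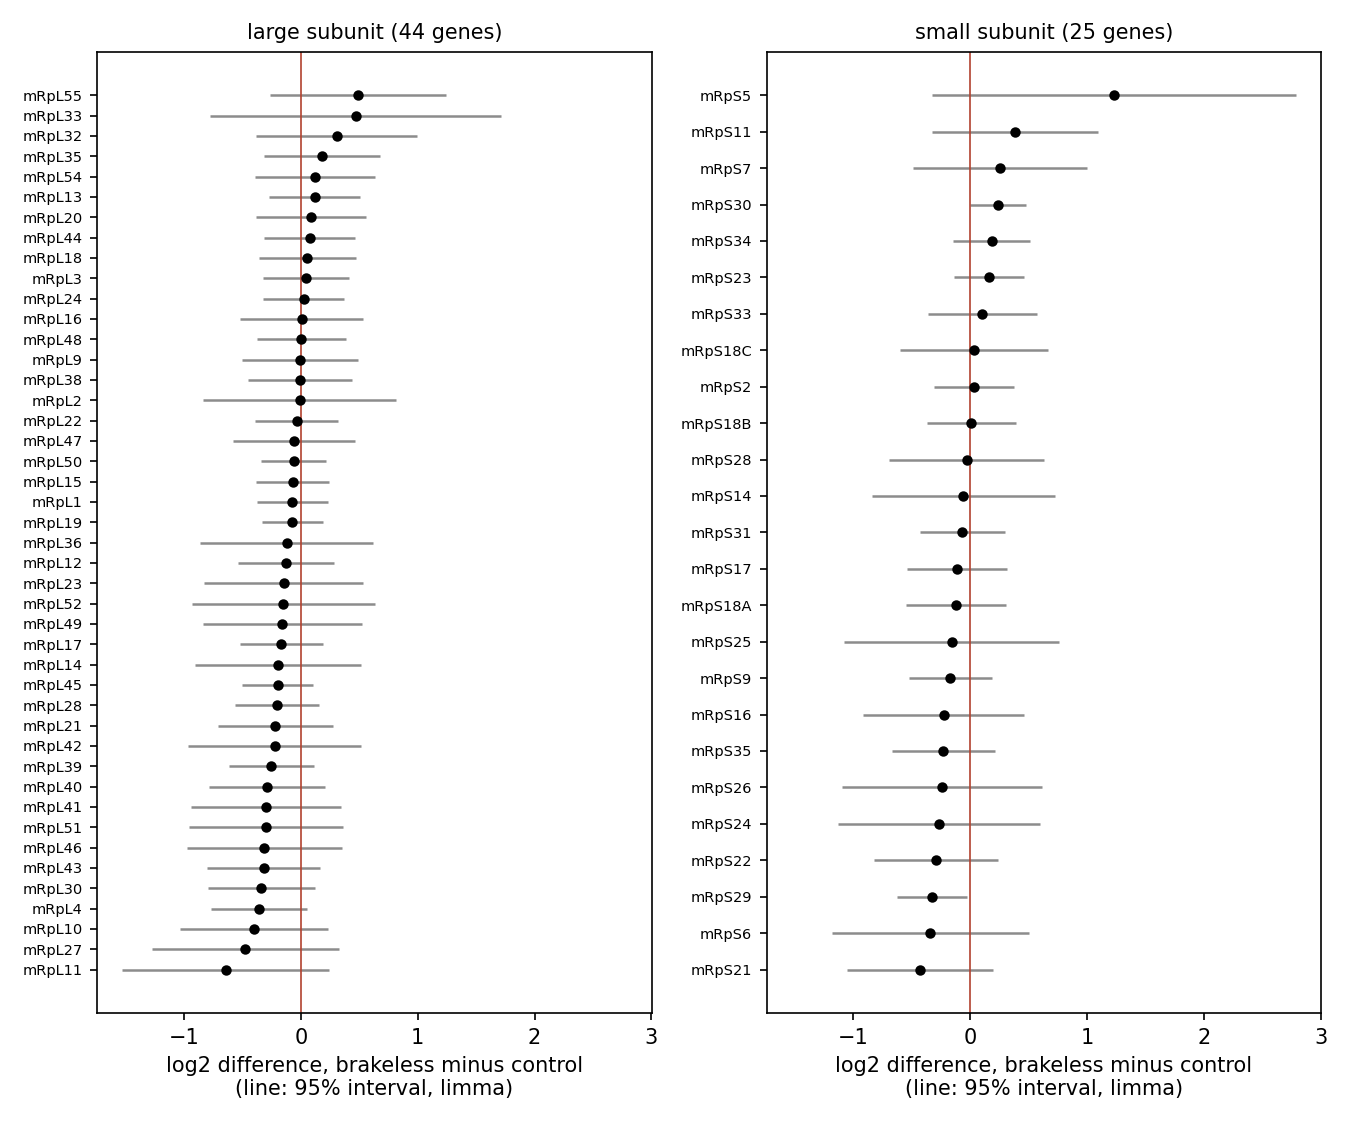
Log2 difference, brakeless minus control (x axis), for each mitochondrial ribosomal protein gene (y axis), with the 44 large-subunit genes on the left and the 25 small-subunit genes on the right. Points are differences of group means (n = 3 arrays each) and lines are 95% intervals of the limma fit; nearly all lines cross 0, and mRpS5 is the 1 gene with a difference of 1 or more.

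The genes whose groups did not overlap were mRpS29 and mRpL4, lower in brakeless, and mRpS30, higher in brakeless, against 6.4% of all genes that were lower and 4.77% that were higher without overlap. mRpS29 (2R, 22418937 to 22420376 in RefSeq Release 6 plus ISO1 MT) encodes a GTP-binding small-subunit protein, the counterpart of human DAP3. Its log2 signals were 9.66, 9.92 and 9.97 in brakeless embryos, against 10.25, 10.13 and 10.14 in control embryos. All 3 brakeless values lay below all 3 control values, and the control values lay close together. The difference was -0.33 (SE 0.12, 95% interval -0.62 to -0.03), with an unadjusted p of 0.0364 and an adjusted p of 0.983 in limma. The gene lies on the arm that carries the brakeless allele, and its annotated span overlaps qkr58E-2.

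mRpL4 (2L, 16328059 to 16329132) encodes a large-subunit protein that in bacteria lines the exit tunnel. It read 10.02, 10.09 and 10.10 in brakeless embryos, against 10.47, 10.11 and 10.71 in control embryos. The lowest control array, replicate 2, was barely above the highest brakeless array. The difference was -0.36 (SE 0.17, 95% interval -0.77 to 0.05; adjusted p = 0.998, limma). Its span overlaps CG4278.

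mRpS30 (X, 15786047 to 15788288) keeps a small-subunit name, although its human counterpart sits in the large subunit. Its signals were 9.42, 9.37 and 9.37 in brakeless embryos and 9.18, 9.22 and 9.05 in control embryos, so the brakeless arrays were all higher. It had the smallest spread within groups of all 69 genes (SD 0.068). The difference was 0.24 (SE 0.10, 95% interval -0.005 to 0.48; adjusted p = 0.998, limma). It is 1 of the 3 genes with a span of 2 kb or more, a feature that comes up again below.

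The greatest negative differences were in mRpL11, mRpL27, mRpS21, mRpL10, mRpL4 and mRpS6. In mRpL11 (3R, 14511838 to 14512691), whose bacterial counterpart forms part of the site where translational GTPases bind, the signals were 8.65, 9.08 and 9.44 in brakeless embryos and 10.17, 8.97 and 9.95 in control embryos. Control replicate 2 lay among the brakeless values. The difference was -0.64 (SE 0.36, 95% interval -1.53 to 0.24; adjusted p = 0.998, limma), and the gene's span overlaps CG8461.

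In mRpL27 (2L, 4458595 to 4459638), a protein close to the peptidyl transferase centre in bacteria, the signals were 9.93, 10.59 and 10.70 in brakeless embryos and 11.42, 10.35 and 10.88 in control embryos. The groups overlapped, with brakeless replicate 1 and control replicate 2 the lowest of their groups. The difference was -0.48 (SE 0.33, 95% interval -1.28 to 0.33). The small-subunit gene mRpS21 (3R, 13381276 to 13381809), the brightest of all, read 10.94, 11.19 and 11.53 in brakeless embryos, against 12.09, 11.26 and 11.59 in control embryos. Its difference was -0.43 (SE 0.26), and again the lowest array of each group was brakeless replicate 1 and control replicate 2.

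mRpL10 anchors the flexible stalk of the large subunit and mRpL12 forms it. mRpL10 (2L, 203779 to 204782) read 10.22, 10.24 and 10.15 in brakeless embryos and 10.62, 10.07 and 11.11 in control embryos, with a difference of -0.40 (SE 0.26). The brakeless arrays agreed closely while the control arrays spread around them. Its partner mRpL12 (3L, 8956791 to 8957584) read 10.87, 11.23 and 11.19 in brakeless embryos and 11.21, 11.00 and 11.47 in control embryos, with overlapping groups and a difference of -0.13 (SE 0.17). mRpS6 (3L, 4364550 to 4365243), a protein of the small-subunit platform, read 8.52, 9.11 and 9.48 in brakeless embryos, against 9.59, 8.78 and 9.77 in control embryos, and differed by -0.34 (SE 0.35). The X-linked mRpL30 also differed by -0.34 (SE 0.19), with signals of 10.69, 10.93 and 10.93 in brakeless embryos and 11.43, 10.82 and 11.32 in control embryos. In both, control replicate 2 lay within the brakeless range.

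The greatest positive differences were in mRpS5, mRpL55, mRpL33, mRpS11, mRpL32 and mRpS7. mRpS5 (3L, 24537236 to 24543534) encodes the protein that in bacteria sits where messenger RNA enters the small subunit. It read 10.99, 10.60 and 10.89 in brakeless embryos, against 10.86, 9.72 and 8.21 in control embryos. The brakeless arrays were close together (10.8 ± 0.20, SD, n = 3), while the control arrays covered a wide range (9.59 ± 1.33, SD, n = 3), and control replicate 1 lay within the brakeless range. The difference was 1.23 (SE 0.64, 95% interval -0.33 to 2.79; adjusted p = 0.998, limma), and leaving out 1 array at a time gave 0.54 to 1.86. The lowest of these, 0.54, came without control replicate 3.

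Control replicate 3 carried the low value in most of the other genes at this end. In mRpL55 (3R, 19094394 to 19094905), a large-subunit protein of animal mitochondria, the signals were 9.86, 10.34 and 10.35 in brakeless embryos and 10.12, 9.91 and 9.05 in control embryos, and the difference was 0.49 (SE 0.31). In mRpL33 (X, 4321764 to 4322231) they were 10.32, 11.01 and 11.55 in brakeless embryos and 11.24, 10.71 and 9.53 in control embryos, and the difference was 0.47 (SE 0.51), and -0.01 without control replicate 3. In mRpL32 (3R, 31252872 to 31253686), whose yeast counterpart is matured by a mitochondrial AAA protease, they were 9.03, 9.56 and 9.56 in brakeless embryos and 9.51, 9.16 and 8.56 in control embryos, and the difference was 0.31 (SE 0.28). In each of these the groups overlapped and control replicate 3 was the lowest of the arrays.

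mRpS11 (3R, 17072732 to 17073795), a platform protein of the small subunit, was measured by a pair of probe sets that gave the same pattern. The brighter read 10.16, 10.66 and 10.70 in brakeless embryos and 10.51, 10.31 and 9.54 in control embryos, and the difference was 0.39 (SE 0.29). The dimmer read 9.77, 10.16 and 10.24 in brakeless embryos and 10.05, 9.75 and 9.05 in control embryos, and the difference was 0.44 (SE 0.28). The low signal on control replicate 3 was thus read by both probe sets. mRpL47, the other gene with a pair of probe sets, differed by -0.06 (SE 0.21) and -0.04 (SE 0.27). mRpS7 (2L, 10386662 to 10387652), a protein of the small-subunit head, read 10.22, 10.87 and 11.02 in brakeless embryos and 10.97, 10.18 and 10.19 in control embryos, and the difference was 0.26 (SE 0.30).

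On control replicate 3, 17 of the 69 genes lay below their own mean over the 6 arrays, although the median of all 69 there was 0.16 above it. The deviations were -2.0 for mRpS5, -1.20 for mRpL33, -0.88 for mRpL55, -0.77 for mRpS11 and -0.67 for mRpL32, and it was the lowest array in 11 genes. The 5 genes with these deviations lie on 3L, X and 3R and include members of both subunits.

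**Figure D2:**
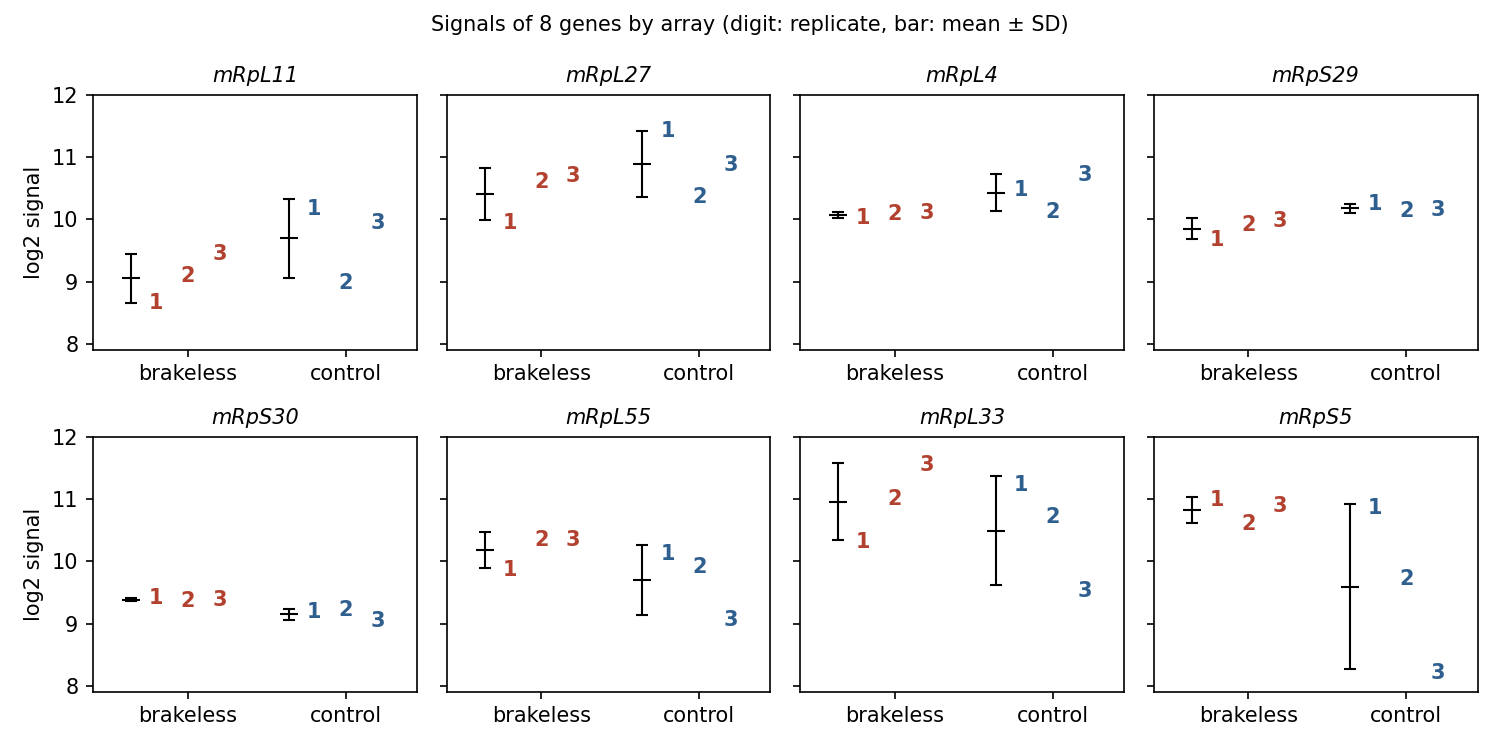
Log2 signal (y axis) of 8 mitochondrial ribosomal protein genes in brakeless embryos (left, red) and control embryos (right, blue), where each digit is the replicate number of 1 array and the bars are mean ± SD (n = 3 arrays). The groups do not overlap in mRpL4, mRpS29 and mRpS30, and control replicate 3 has the lowest signal in mRpL55, mRpL33 and mRpS5.

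Neither subunit stood apart. The median difference was -0.10 over the 44 large-subunit genes, of which 31 were negative, and -0.07 over the 25 small-subunit genes, of which 15 were negative. Genes numbered after bacterial ribosomal proteins (40) had a median of -0.07 with 25 negative, and those with the higher numbers given to mitochondria-specific proteins (29) had -0.16 with 21 negative. All of these lay within the spread between arrays.

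By chromosome arm, the 10 genes on 2R, which carries the brakeless allele, had a median difference of -0.19 with 8 negative, and the 59 elsewhere had -0.07 with 38 negative. The 17 genes on 3L had -0.13 with 14 negative, the 19 on 3R had -0.07 with 12 negative, the 11 on X had -0.04 with 7 negative and the 12 on 2L had 0.01 with 5 negative. The share of the genes on 2R was 14.5%, against 20.4% of all genes placed on the genome. No test was run between arms, and the genes on 2R also had the shortest median span of the arms, 758.5 bases.

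The mRpS18 paralogs, which descend from a single bacterial protein, did not separate the groups. mRpS18A (3R, 8561917 to 8562593), whose human counterpart is found in the large subunit, differed by -0.12 (SE 0.18). mRpS18B (2L, 20096329 to 20097253) differed by 0.01 (SE 0.16) and mRpS18C (3R, 30423974 to 30424556) by 0.04 (SE 0.26). The signs of all 3 turned when single arrays were left out.

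Other genes at the ends of the signal range also showed small differences. Among the brightest, mRpL49 differed by -0.16 (SE 0.28) and mRpL17, a protein at the exit of the tunnel in bacteria, by -0.17 (SE 0.15). Among the dimmest, mRpS2 differed by 0.03 (SE 0.14), mRpL43 by -0.32 (SE 0.20), mRpL40 by -0.29 (SE 0.20) and mRpL35 by 0.18 (SE 0.20). mRpL19 and mRpL50 were among the steadiest within groups and differed by -0.07 (SE 0.11) and -0.06 (SE 0.11). mRpS25 was among the least steady, with signals of 9.32, 10.35 and 10.54 in brakeless embryos and 10.56, 9.76 and 10.36 in control embryos, and the difference was -0.16 (SE 0.38). Its low arrays were brakeless replicate 1 and control replicate 2.

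Those arrays were low in nearly the whole set. Relative to each gene's own mean over the 6 arrays, 67 of the 69 genes lay below it on brakeless replicate 1 and 65 on control replicate 2. Over all genes the shares below were 53.8% and 53.9%. On the other arrays, 20 genes lay below on brakeless replicate 2 and 13 on brakeless replicate 3, and 8 on control replicate 1 and 17 on control replicate 3. The median deviations were -0.28, 0.08 and 0.13 on the brakeless arrays, against 0.22, -0.20 and 0.16 on the control arrays. Each group thus held 1 low array and a pair of higher ones.

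All 44 large-subunit genes were below their mean on brakeless replicate 1. The exceptions there were mRpS5 and mRpS30, and on control replicate 2 they were mRpS29, mRpL50, mRpL13 and mRpS23. In 43 of the 69 genes (62.3%) these were the lowest arrays of the 6, against 14.2% of all genes. Brakeless replicate 1 was a median of -0.38 from the mean of the other brakeless arrays, and control replicate 2 a median of -0.39 from the mean of the other control arrays. The gap within each group was therefore wider than the median difference between the groups.

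**Figure D3:**
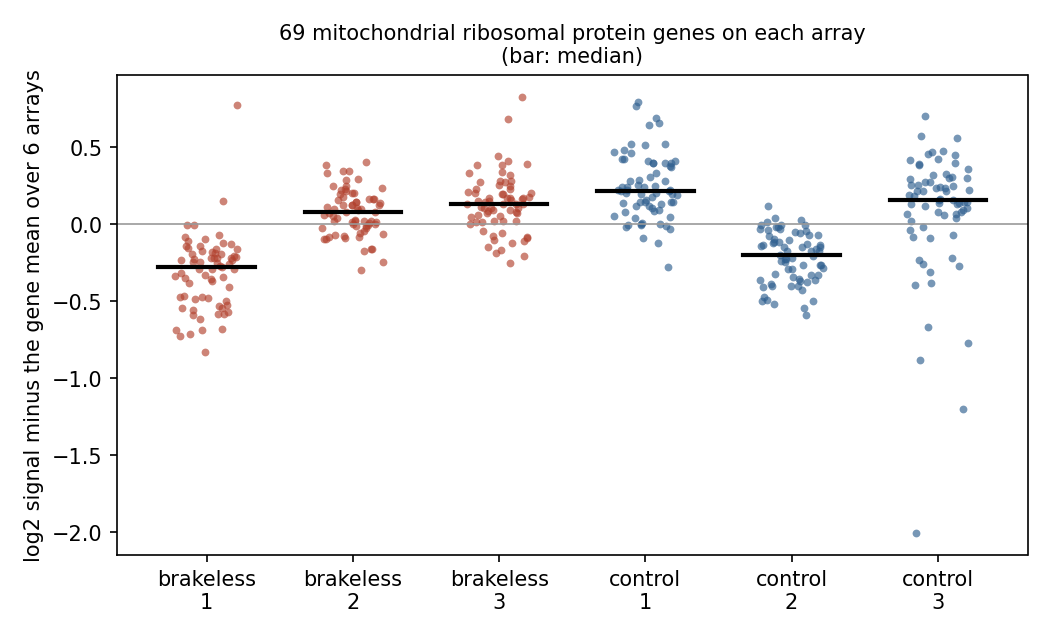
Log2 signal of each mitochondrial ribosomal protein gene minus its own mean over the 6 arrays (y axis) on the 3 brakeless arrays (left, red) and the 3 control arrays (right, blue). Points are the 69 genes and bars are medians; on brakeless replicate 1 and control replicate 2, 67 and 65 genes lie below 0, and on control replicate 3 a few genes lie far below it.

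A shift of the whole set by array accounted for 39.4% of the variation of its genes around their means, of which 1.18 percentage points lay between the groups. Over all genes the same figure was 0.199%, and over the 2686 genes whose signals lie in the range of the set it was 0.557%. The genes of the set thus varied together along a direction that did not separate brakeless from control. Normalization across arrays keeps a shift common to very many genes small, and the figure also depends on the number of genes. The 0.199% and 0.557% are therefore no baseline for a set of 69 genes. In the 71 oxidative phosphorylation genes, a set of similar size, it was 18.0%. Genes with large variation weigh most in this figure, and that set holds ATPsynepsilonL, with a group difference of -4.06. Its signals also run down to 2.62, so its figure is no like baseline either. Over the other gene lists the figure ran from 6.75% (19 import and chaperone genes) to 75.8% (8 muscle genes of older embryos). The figures are a description of 6 arrays and carry no test.

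The set differs from most genes in gene span, the distance from the start to the end of a gene in the annotation, introns included. The median span was 909 bases, against 2263 over the genes tested, and 66 of the 69 spanned under 2 kb. The exceptions were mRpS30 (2242 bases), mRpS5 (6299 bases) and mRpS9 (13391 bases), the last of which is named here after its values were seen and overlaps ArgRS-m and wtrw. The 2 genes that lay above their mean on brakeless replicate 1 were both among these 3, but mRpS9, the longest, lay at -0.23 there. On control replicate 2 all 3 lay below their mean, mRpS30 at -0.04, mRpS5 at -0.49 and mRpS9 at -0.05. The genes above their mean on that array all spanned under 2 kb.

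The array pattern followed gene span in other genes as well. Among 2609 other genes in the same signal range, the 285 with a span under 1 kb had a median deviation of -0.41 on brakeless replicate 1, where 95.8% lay below their mean, and of -0.25 on control replicate 2. The 40 mitochondrial ribosomal protein genes of that span had -0.39 and -0.27 on those arrays. At 1 to 2 kb the other genes (872) had -0.11 and -0.07, while the 26 mitochondrial ribosomal protein genes had -0.22 and -0.13. Other genes of 2 to 5 kb (989) had 0.19 and 0.09, and those of 5 kb or more (463) had 0.43 and 0.23. Short genes were low and long genes high on both arrays. The mitochondrial ribosomal protein genes under 1 kb were about as low as other genes of their span, while those of 1 to 2 kb were lower. Of the latter, 100% lay below their mean on brakeless replicate 1 and 92.3% on control replicate 2. The shares in other genes of 1 to 2 kb were 67.5% and 66.5%.

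The difference between the groups moved with span in the same way. Its median was -0.12 in other genes under 1 kb, -0.07 at 1 to 2 kb, 0.05 at 2 to 5 kb and 0.18 at 5 kb or more. In the mitochondrial ribosomal protein genes it was -0.12 under 1 kb and -0.07 at 1 to 2 kb, the same to 2 decimals as in other genes of those spans.

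**Figure D4:**
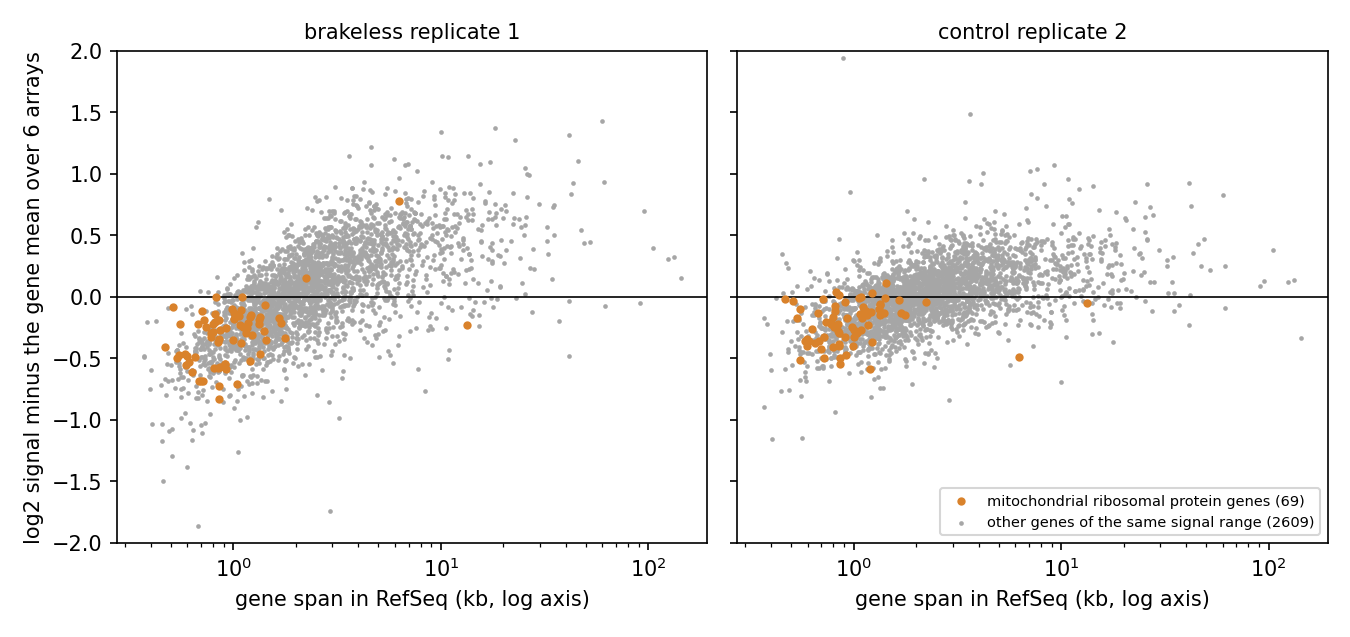
Deviation of log2 signal from each gene's mean over the 6 arrays (y axis) against gene span in kb (x axis, log scale) on brakeless replicate 1 (left) and control replicate 2 (right), for the 69 mitochondrial ribosomal protein genes (orange) and 2609 other genes of the same signal range (grey). Short genes lie below 0 and long genes above it on both arrays; 5 genes on brakeless replicate 1 and 1 gene on control replicate 2 lie beyond the axis limits of 2 log2 units.

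After these patterns were seen, the trend of deviation on span was fitted on each array over the 2609 other genes and subtracted. The share of variation common to the set by array was then 2.79%, against 39.4% before. The medians were 0.05, 0.06 and -0.05 on the brakeless arrays and -0.02, -0.04 and 0.06 on the control arrays, and 29 genes lay below their mean on brakeless replicate 1 and 40 on control replicate 2. The median half-width of the 95% intervals was 0.362, and 62 of 69 intervals stayed within 1 log2 unit of 0. The 2609 genes include short genes that shared the low arrays, such as those of oxidative phosphorylation described below. Span therefore cannot be told apart here from other features that such short genes have in common.

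With the trend removed, none of the 69 genes passed the test, and the count at an unadjusted p under 0.05 was 1, mRpL54 (adjusted p = 0.917, limma), against 6.66% of all genes in that fit. The median difference was 0.03, with 39 positive and 30 negative, so the excess of negative differences was not kept. The groups did not overlap in 7 genes, against 11.9% of all genes. Among these were mRpS29, at -0.26, and mRpS30, at 0.22, which kept their directions. mRpL4 was not among them and differed by -0.27. mRpL45 and mRpL17 were lower in brakeless embryos, and mRpS2, mRpL54 and mRpL35 were higher; mRpL45 and mRpL54 are named after their values were seen. mRpL11 differed by -0.50, mRpL55 by 0.70, mRpL33 by 0.69 and mRpS5 by 1.05, and control replicate 3 remained the lowest array in mRpL55, mRpL33 and mRpS5.

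Other measures of the arrays only partly followed the same order. The median signal over all probe sets tested was 3.59, 3.67 and 3.71 on the brakeless arrays and 3.70, 3.62 and 3.73 on the control arrays. It was lowest on brakeless replicate 1 and control replicate 2, the low arrays of the set. With the arrays centred on that median, the shift by array made up 28.4% of the variation of the set, against 39.4% before. Then 64 genes lay below their mean on brakeless replicate 1 and 56 on control replicate 2. The bacterial hybridization controls, labelled RNAs added before hybridization, averaged 9.45, 10.9 and 11.7 on the brakeless arrays and 11.1, 10.3 and 10.3 on the control arrays, lowest on brakeless replicate 1. The bacterial poly(A) controls averaged 6.62, 7.12 and 7.37 on the brakeless arrays and 7.38, 7.01 and 6.51 on the control arrays. The difference between the 3′ and 5′ probe sets of a gene, a measure that depends on how complete its transcripts and their copies are, was 1.07, 1.17 and 1.16 for GAPDH on the brakeless arrays and 1.19, 1.24 and 1.04 on the control arrays. For actin it was 1.59, 1.82 and 1.30 on the brakeless arrays and 1.29, 1.69 and 1.42 on the control arrays. For eIF-4a it was 2.48, 2.18 and 2.32 on the brakeless arrays and 2.33, 2.32 and 2.05 on the control arrays. The 3 genes did not give the arrays the same order: brakeless replicate 1 was next to lowest for GAPDH, near the middle for actin and highest for eIF-4a.

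Marker lists for stage took other orders than the mitochondrial ribosomal proteins, while some tissue lists at low signal shared their low arrays. The 9 genes transcribed in embryos of this age had median deviations of -0.34, -0.21 and 0.30 on the brakeless arrays and 0.29, 0.18 and -0.17 on the control arrays. The 8 measured maternal transcripts that are cleared early had 0.45, 0.09 and -0.05 on the brakeless arrays and -0.07, 0.21 and -0.34 on the control arrays. The 8 measured muscle genes of older embryos had -1.33, -0.26 and 0.53 on the brakeless arrays and 0.55, 1.30 and -0.59 on the control arrays. Muscle genes were thus lowest on brakeless replicate 1 and highest on control replicate 2, which were both low arrays for the mitochondrial ribosomal proteins. Between the groups, the median difference was -0.14 in the genes transcribed at this age (6 of 9 negative) and 0.30 in the maternal transcripts (3 of 8 negative). In the muscle genes it was -0.73 (8 of 8 negative), and no gene of these lists passed the test. The 9 follicle cell and eggshell genes had -0.12, 0.04 and 0.003 on the brakeless arrays and 0.09, -0.13 and 0.17 on the control arrays, with 8 of 9 below their mean on brakeless replicate 1 and 8 of 9 on control replicate 2. The 5 measured neuron genes had -0.15, -0.03 and 0.10 on the brakeless arrays and 0.11, -0.16 and 0.20 on the control arrays. In both lists, as in the 3 yolk protein genes at -0.08 and -0.09, brakeless replicate 1 and control replicate 2 were the lowest arrays. The 3 hemocyte genes were lowest on brakeless replicates 2 and 1, at -0.15 and -0.11. Apart from the muscle genes and a neuron gene at 5.87, the tissue lists read no higher than 4.67. The part of gene span, the median level of each array, the added controls, RNA quality, stage and other tissues in the array pattern was not tested.

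Apart from the mRp genes, a pair of mitoribosomal proteins has other symbols. tko encodes the small-subunit protein S12, whose mutation makes flies paralyse on mechanical shock, and it read 10.6, 11.2 and 11.3 in brakeless embryos and 11.3, 10.9 and 11.5 in control embryos. bonsai encodes S15 and read 10.1, 10.3 and 10.3 in brakeless embryos and 10.2, 10.2 and 9.53 in control embryos. The groups overlapped in both, with differences of -0.20 for tko and 0.24 for bonsai. Like the mRp genes above, tko was low on brakeless replicate 1 and control replicate 2, and bonsai was low on control replicate 3.

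The factors that work with the mitochondrial ribosome were on a list of 35 translation factors and aminoacyl-tRNA synthetases, of which 26 were measured. None passed the test, and 5 had an unadjusted p under 0.05 (19.2%, against 6.16% of all genes), of which 2 were higher and 3 lower in brakeless embryos. The groups did not overlap in 6 (23.1%, against 11.2% of all genes), 2 higher and 4 lower. The median difference was 0.05.

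GatA, a subunit of the amidotransferase that completes the charging of mitochondrial glutamine tRNA, read 7.98, 8.10 and 8.03 in brakeless embryos, against 8.59, 8.37 and 8.91 in control embryos. All brakeless values were lower, by a difference of -0.59 (SE 0.16; adjusted p = 0.612, limma). mEFTu2, an elongation factor that delivers charged tRNA, read 8.47, 8.68 and 8.47 in brakeless embryos, against 8.90, 8.84 and 9.88 in control embryos, and the difference was -0.67 (SE 0.30; adjusted p = 0.998, limma). The groups of mEFTu2 did not overlap either, and its highest array was control replicate 3. At the other end, AsnRS-m read 7.53, 7.54 and 7.65 in brakeless embryos, against 7.32, 7.28 and 6.09 in control embryos, with a difference of 0.68, and IleRS-m differed by 0.55. mEFTu2 and AsnRS-m lie on 2R, the arm that carries the brakeless allele, as do mEFTu1 and PheRS-m, also lower without overlap. GatA lies on 3R and IleRS-m on 3L, as does ProRS-m, higher without overlap. mEFTu1, PheRS-m and ProRS-m are named here after their values were seen, and no test was run between arms.

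This list did not share the array pattern of the ribosomal proteins. Its median deviations were 0.10, 0.11 and -0.16 on the brakeless arrays and -0.08, -0.01 and 0.02 on the control arrays, and its median span was 2187 bases. Genes for mitochondrial transcription, RNA processing and DNA maintenance (16 of 24 measured, median span 2176.5 bases) also had no gene past the test, 3 genes at an unadjusted p under 0.05, all higher (18.8%, against 6.16% of all genes in both directions), and a median difference of 0.09. Their highest were RNaseZ, a tRNA-processing endonuclease, at 0.51 and rswl at 0.49, and their lowest were PolG1, the catalytic subunit of the mitochondrial DNA polymerase, at -0.51 and mTTF, a transcription termination factor, at -0.38. RNaseZ and rswl were among the 3 genes at an unadjusted p under 0.05 and lie on 2R, while PolG1 and mTTF lie on 2L. The remaining gene of the 3, mtDNA-helicase on 2L, is named here after its values were seen.

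Protein import and chaperone genes, which serve the delivery and folding of the ribosomal proteins, had 19 of 25 measured and none past the test. At an unadjusted p under 0.05 there was 1 (5.26%, against 6.16% of all genes), mge, a receptor of the outer membrane, at 0.37 (adjusted p = 0.813, limma). The inner-membrane channel gene Tim23 was the highest at 0.60 and the chaperone gene Hsp60A the lowest at -0.21, with a median of 0.11 over the list. Of 9 regulators of mitochondrial gene expression 6 were measured, and none had an unadjusted p under 0.05. They ran from ewg at -0.28 and Ets97D at -0.25 to foxo at 0.20 and Dref at 0.23.

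The sets nearest in function are the nuclear-encoded subunits of oxidative phosphorylation and the proteins of the cytoplasmic ribosome. None of 71 oxidative phosphorylation genes and none of 41 cytoplasmic ribosomal protein genes passed the test. At an unadjusted p under 0.05 there were 2 (2.82%) and 3 (7.32%), against 6.16% of all genes. The median differences were -0.11 and -0.03. On brakeless replicate 1, 84.5% of the oxidative phosphorylation genes and 85.4% of the cytoplasmic ribosomal protein genes lay below their means, and on control replicate 2, 78.9% and 73.2%. The shared shift by array made up 18.0% of the variation in the first set and 6.82% in the second. Of these, 6.29 and 4.04 percentage points lay between the groups, so the shares are not a measure of the low arrays alone. The greatest differences, -4.06 in ATPsynepsilonL and -6.06 in RpS10a, enter both kinds of share, in which genes with large variation weigh most. Both sets are short, with median spans of 1100 and 1073 bases. Both thus showed the low arrays of the mitochondrial ribosomal proteins, with smaller median deviations of -0.23 and -0.08 on brakeless replicate 1, and the difference between the sets was not tested.

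**Figure D5:**
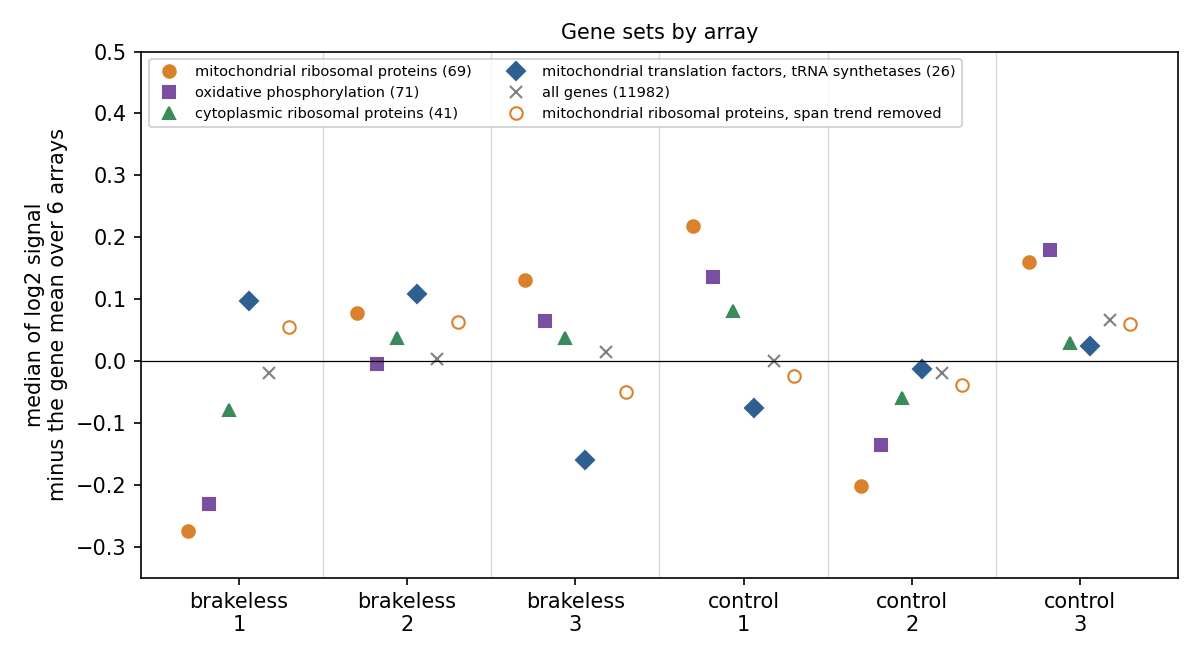
Median deviation of log2 signal from the gene mean over the 6 arrays (y axis) on each brakeless array (left) and control array (right), for 4 gene sets and all genes (filled symbols and crosses) and for the mitochondrial ribosomal proteins with the span trend removed (open circles). The mitochondrial ribosomal proteins and oxidative phosphorylation genes are low on brakeless replicate 1 and control replicate 2, the translation factors are not, and the open circles stay within 0.063 of 0.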

How the data were processed

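The deposited values are log2 signals per probe set, made by the authors with RMA, per the submitters' processing notes; its settings and version are not given in these sources. RMA gives all arrays the same distribution of probe intensities, so a difference in total RNA per embryo cannot be seen. The 183 Affymetrix control probe sets were kept out of the tests, which left 18769. Arrays have no read depth, so precision rests on their number.

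Gene names are those of the platform annotation, and positions and spans are those of RefSeq Release 6 plus ISO1 MT. Differences, brakeless minus control, came from lmFit and eBayes of limma 3.58.1 (R 4.3.3), fitted to all 6 arrays without a covariate. They were tested two-sided, with Benjamini-Hochberg adjustment over all probe sets tested and a threshold of 0.05. Intervals are 95% intervals of that fit. The step was also run on simulated data with independent noise in each probe set. Those data held no array shift shared between genes, so they do not cover that feature of the arrays. Figures used matplotlib 3.10.9.

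The genes, lists and tests were chosen with earlier results of these data known. The rule named the genes with the 6 highest and 6 lowest signals, the 6 greatest differences in each direction, the 6 smallest p-values, the 3 greatest and 3 smallest spreads within groups, the mRpS18 paralogs, mRpS29 and mRpL12, 28 genes in all, and in each pathway list the 2 highest and 2 lowest differences, with tko and bonsai. The span trend (lowess on log10 span) and the fit without brakeless replicate 1 and control replicate 2 were chosen after seeing the data. Other alternatives were array weights, trend and robust eBayes, filters on signal, centring, quantile normalization again, the mean of a gene's probe sets, a replicate block and each array left out. Replicate numbers follow the sample titles, and for control replicate 3 another label gives a different number. Numbered by title, the arrays did not pair (correlations of deviations -0.43, -0.21 and -0.34). Sequences of the genes were not used here.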

Additional observations from a re-analysis of the deposited data

How the results depend on the processing

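No mitochondrial ribosomal protein gene, and none of the 44 genes on the other translation and gene expression lists, passed limma's test under any of the 16 alternatives. At an unadjusted p under 0.05 the ribosomal protein count reached 8 of 69 without control replicate 2 (11.6%, against 9.86% of all genes in that fit). The median difference of -0.07 ranged from -0.24 to 0.05 with 1 array left out and was 0.03 with the span trend removed. Genes whose groups did not overlap numbered 3 of 69, and 3 to 27 with 1 array left out. The 27 came without control replicate 2, a larger share of the 69 than the 25.5% of all genes in that fit. There were 35 without brakeless replicate 1 and control replicate 2, again a larger share than that of all genes (34.1%). After centring there were 5 and with the span trend removed 7, smaller shares than that of all genes (11.9% each time). Fewer arrays separate more often by construction, in all genes as in these. The larger shares in the 69 genes were not tested, and without control replicate 2 their median difference was -0.24. With the replicate number as a block the median difference was -0.07 and 0 genes were called, with 0 at an unadjusted p under 0.05 (4.84% of all genes); the numbers do not pair the arrays.

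Of 448 values of the named genes under the alternatives, 426 kept their direction and 22 turned. mRpL19 was 0.0076 with array weights. Without brakeless replicate 1 and control replicate 2, mRpS2 was -0.0282 and mRpL50 0.0131. With the span trend removed, mRpS18A was 0.0667, mRpL12 0.0320, mRpL19 0.0164 and mRpL50 0.0821. With 1 array left out, mRpS18A ranged from -0.216 to 0.0484, mRpL49 from -0.338 to 0.0935, mRpS2 from -0.0834 to 0.107, mRpS18C from -0.134 to 0.277, mRpS18B from -0.0766 to 0.138, mRpL33 from -0.0124 to 0.843, mRpS25 from -0.394 to 0.217 and mRpL50 from -0.129 to 0.0212. The cause of these turns was not tested.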
